A study of Mus musculus with 24 samples.

Results

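Chemokines are small secreted proteins that direct the migration of leukocytes through G protein-coupled receptors. Expression of 10 chemokine ligands of inflammation and allergy was followed in dendritic cells (DCs) of newborn mice: Cxcl1, Cxcl2, Ccl2, Ccl3, Ccl4, Ccl5, Ccl17, Ccl22, Ccl24 and Xcl1. The genes were chosen by name with their values on these arrays known, above all the changes of Cxcl1 in naïve pups and of Cxcl2 in stimulated pups, and each was read from the probe sets to which the platform annotation gives that single symbol. Each had 1 such probe set, and the 10 genes were among 12393 genes that could be named in this way. Because the list was drawn up with results in view, the changes with maternal status of naïve pups and of stimulated pups are given as descriptions, and no p is printed for them, although which of them were called rests on the same test as elsewhere.

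The arrays were made from splenic CD11c+ dendritic cells of BALB/c pups, taken at day 14 of life by the methods and enriched with magnetic beads. At-risk pups were born to asthmatic mothers, which had been given ovalbumin (OVA) with alum as pups and were then exposed to OVA aerosols before mating with normal males, and normal pups were born to control mothers. Stimulated pups, labelled allergen-sensitized, were injected once (1 dose of OVA, 5 µg, mixed with alum, 1 mg) into the peritoneum, at day 3 by the labels and at day 4 by the methods, and naïve pups received no allergen. Set 1 comprised arrays of naïve pups (3 normal, 4 at-risk) and of stimulated pups (4 normal, 4 at-risk). Set 2, whose RNA was amplified with a NuGEN kit by the methods, comprised arrays of stimulated pups alone (4 normal, 5 at-risk). How many pups or litters stand behind an array is not stated in these sources, so the tests measure the spread between arrays. By the methods, 1 array of each set had been excluded before deposit after a principal component analysis.

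The listed ligands fall into known roles. Cxcl1 and Cxcl2 attract neutrophils through Cxcr2, and Ccl2 attracts monocytes through Ccr2. Ccl3, Ccl4 and Ccl5 attract monocytes, T cells and NK cells, Ccl17 and Ccl22 attract T helper and regulatory T cells through Ccr4, Ccl24 attracts eosinophils through Ccr3, and Xcl1, a product of NK and CD8 T cells, attracts cross-presenting DCs through Xcr1. Many of these genes are switched on in activated DCs and macrophages by NF-kB, and Ccl17 and Ccl22 are also products of mature DCs and are raised in allergic disease.

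All values are log2 of the deposited probe set signals, which are relative to the other probe sets of an array, and levels of different genes are not set against each other. The median signal per array was 272.1 to 298.3 on the linear scale, and replicate arrays had a median SD of 0.10 to 0.15 in log2 units. Mean signals of the conventional DC markers stood at percentile ranks from 80.8 (Batf3) to 99.98 (Cd74) among all probe sets, with Itgax at 97.8. Markers of other cells ranked as high, among them S100a9 (99.8) and C1qb (97.8), so these ranks do not measure the share of DCs. The mean over 11 measured conventional DC markers was 12.32 to 12.67 in all 24 arrays. The mean over 8 platelet markers was 6.29 to 6.63 in naïve arrays and 9.53 to 10.52 in stimulated arrays of Set 1. In Set 1 the array AF85 of the stimulated normal group had the highest mean of NK cell markers (10.06) and of T cell markers (9.44) among the 8 stimulated arrays. These arrays are of bulk RNA, in which fewer cells of a type and less RNA per cell cannot be told apart. Array numbers ran in blocks by group in both sets, so that array number and group cannot be told apart.

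Promoter sequences of 6 of the 10 genes were found in the RefSeq table given with the data (build GRCm38.p6), as windows of 250 bases before and 50 bases after the annotated start, and Ccl2, Ccl4, Ccl5 and Ccl24 had no entry. These 5 sequences are shown because Cxcl1 and Cxcl2 carry the same NF-kB match, Ccl3 and Xcl1 are members whose maternal difference depended on the set, and Ccl22 is a member that passed the test in no comparison. They are written 5′ to 3′ on the strand of the gene, with the NF-kB match in capitals, and the windows of Ccl3, Xcl1 and Ccl22 hold none.
Cxcl1, chr5:90890995-90891294, plus strand: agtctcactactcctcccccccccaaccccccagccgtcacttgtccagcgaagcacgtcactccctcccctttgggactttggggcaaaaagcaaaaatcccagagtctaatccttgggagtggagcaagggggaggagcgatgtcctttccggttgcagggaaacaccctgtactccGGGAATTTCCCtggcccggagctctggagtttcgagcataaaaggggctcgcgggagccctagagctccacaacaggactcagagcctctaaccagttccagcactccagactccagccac
Cxcl2, chr5:90903649-90903948, plus strand: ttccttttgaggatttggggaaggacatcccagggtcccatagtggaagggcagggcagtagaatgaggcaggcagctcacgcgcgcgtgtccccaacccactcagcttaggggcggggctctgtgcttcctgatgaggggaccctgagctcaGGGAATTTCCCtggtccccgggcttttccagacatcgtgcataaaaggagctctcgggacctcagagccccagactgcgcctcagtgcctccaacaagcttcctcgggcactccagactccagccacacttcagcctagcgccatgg
Ccl3, chr11:83649329-83649628, minus strand: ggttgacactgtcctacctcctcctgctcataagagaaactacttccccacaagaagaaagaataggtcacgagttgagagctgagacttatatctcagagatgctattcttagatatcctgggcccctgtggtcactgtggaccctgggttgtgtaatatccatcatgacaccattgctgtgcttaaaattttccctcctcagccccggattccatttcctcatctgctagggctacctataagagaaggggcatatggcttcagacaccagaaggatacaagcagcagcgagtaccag
Xcl1, chr1:164935473-164935772, minus strand: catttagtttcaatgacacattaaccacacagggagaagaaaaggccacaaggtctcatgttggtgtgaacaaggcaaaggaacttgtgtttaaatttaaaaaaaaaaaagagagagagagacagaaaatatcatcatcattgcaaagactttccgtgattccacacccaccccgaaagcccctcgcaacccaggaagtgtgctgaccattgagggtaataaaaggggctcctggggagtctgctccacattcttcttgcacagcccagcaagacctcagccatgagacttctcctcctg
Ccl22, chr8:94745434-94745733, plus strand: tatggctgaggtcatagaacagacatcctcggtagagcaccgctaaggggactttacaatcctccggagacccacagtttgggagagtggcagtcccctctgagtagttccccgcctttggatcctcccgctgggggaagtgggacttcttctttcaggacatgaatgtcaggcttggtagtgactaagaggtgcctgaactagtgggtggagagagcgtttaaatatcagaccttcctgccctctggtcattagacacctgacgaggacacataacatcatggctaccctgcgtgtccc

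The NF-kB consensus motif was searched on both strands, and 8.46% of all 32851 promoter windows of the table held a match. Of the 6 members with an entry, Cxcl1 and Cxcl2 held it, in both cases as the run GGGAATTTCCC, which matches the consensus once on each strand with overlapping matches. The run lay at positions -71 to -61 of Cxcl1 and -97 to -87 of Cxcl2, counted from the annotated start, whose first base is 1. In all, 12 windows of the table held this run. An AP-1 motif (TGANTCA, both strands, in 7.81% of windows) and a TATA motif (TATAAA, both strands, in 13.6% of windows) were in none of the 6 members. The longest stretch that Cxcl1 and Cxcl2 shared was GCACTCCAGACTCCAGCCAC, 20 bases long, after the start of both genes, and Cxcl1 and Xcl1 shared the 13-base run ATAAAAGGGGCTC just before the start. These matches are descriptions of the letters in the windows.

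Several of the genes are neighbours. Cxcl1 and Cxcl2 lie on chromosome 5 with annotated starts 12654 bases apart. Ccl3 and Ccl4 lie on chromosome 11, and their annotated spans overlap by 755 bases. Ccl17 and Ccl22 lie on chromosome 8 with lower coordinates of their spans 63696 bases apart. Ccl24 is on chromosome 5 at 135569935 to 135573123, Ccl2 on chromosome 11 at 82035577 to 82037452, Ccl5 on chromosome 11 at 83525778 to 83530518 and Xcl1 on chromosome 1 at 164931644 to 164935522, all in the RefSeq annotation of the same build.

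Within Set 1, the means of 8 of the 10 genes stood in the same order, with naïve normal highest, naïve at-risk next and both stimulated groups lowest. The exceptions were Ccl17, in which all neighbouring groups overlapped, and Ccl22. That order was found in 80% of the members and in 17.6% of all 22626 probe sets, and the list had been chosen with these levels known. Levels are not ordered between Set 1 and Set 2, because the sets were preprocessed separately.

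**Figure D1:**
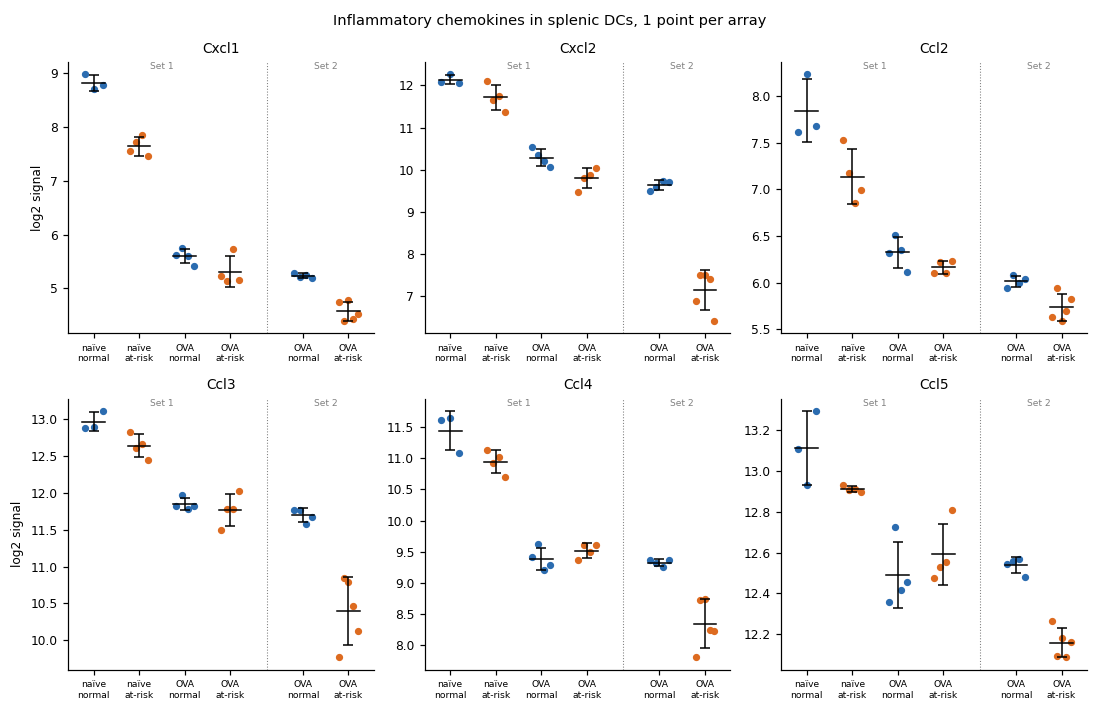
Log2 signal of the 6 inflammatory ligands Cxcl1, Cxcl2, Ccl2, Ccl3, Ccl4 and Ccl5 (vertical axes, each on its own range) in the 6 groups (horizontal axes). Each point is 1 array, blue for normal and orange for at-risk pups, OVA stands for stimulated pups, black bars are the mean ± SD and a dotted line separates Set 1 from Set 2. In Set 1 all naïve arrays lie above all stimulated arrays for every gene shown, and in Set 2 the at-risk arrays lie below the normal arrays for all but Ccl2.

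Stimulated pups of Set 1 were compared with naïve pups of the same maternal status, to ask how the ligands differed after an earlier injection of OVA with alum. No group is labelled as given alum alone, so OVA and alum cannot be told apart. In normal pups 8 of the 10 genes fell, where a call needs a p adjusted by Benjamini-Hochberg over all probe sets that does not exceed 0.05 and a change of at least 0.32 on the log2 scale, the thresholds the study used. Of all probe sets, 5.76% were called lower in this comparison. The median log2 change of the members was -1.32, against 0.00 over all probe sets. In at-risk pups 7 of the 10 fell, where 3.46% of all probe sets were called lower, and the median was -0.82 against -0.01. No member rose in either comparison. The p-values that follow are from limma over all 22626 probe sets, and because the list was drawn up with results known they describe the members and do not stand as independent support for them.

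Among the ligands that attract neutrophils, Cxcl1 had log2 signals of 8.97, 8.70 and 8.77 in naïve normal arrays and of 5.62, 5.74, 5.59 and 5.43 in stimulated normal arrays. In at-risk pups it was 7.55, 7.71, 7.85 and 7.45 in naïve arrays and 5.22, 5.14, 5.73 and 5.17 in stimulated arrays. The stimulated arrays lay far below the naïve ones in both comparisons, with no overlap. Cxcl1 fell by 3.22 on the log2 scale in normal pups (SE 0.14, adjusted p = 5.58e-09), a 9.31-fold lower signal, and fell by 2.33 in at-risk pups (SE 0.13, adjusted p = 3.7e-08), a 5.02-fold lower signal. In stimulated arrays Cxcl1 was a dim probe set, and its mean over all arrays stood at the 33.7 percentile of all probe sets.

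Cxcl2 had log2 signals of 12.08, 12.27 and 12.07 in naïve normal arrays and of 10.54, 10.34, 10.20 and 10.06 in stimulated normal arrays. In at-risk pups it was 12.10, 11.64, 11.75 and 11.36 in naïve arrays and 9.47, 9.79, 9.86 and 10.05 in stimulated arrays. Again no stimulated array reached a naïve one. Cxcl2 fell by 1.85 in normal pups (SE 0.16, adjusted p = 3.31e-06) and fell by 1.92 in at-risk pups (SE 0.15, adjusted p = 1.07e-06), or 3.61-fold and 3.79-fold.

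Of the ligands that attract monocytes and T cells, Ccl4 fell the most, from 11.44 ± 0.32 (SD, n = 3) to 9.38 ± 0.18 (SD, n = 4) in normal pups and from 10.94 ± 0.18 (SD, n = 4) to 9.52 ± 0.12 (SD, n = 4) in at-risk pups, with limma adjusted p-values of 3.82e-07 and 4.58e-06. Ccl3 was 12.88, 12.90 and 13.11 in naïve normal arrays and 11.82, 11.97, 11.78 and 11.83 in stimulated normal arrays, and it was 12.82, 12.61, 12.66 and 12.44 in naïve at-risk arrays and 11.49, 11.77, 11.78 and 12.03 in stimulated at-risk arrays. Both stimulated groups lay below both naïve groups. Ccl3 fell by 1.12 in normal pups (SE 0.11, adjusted p = 1.35e-05) and fell by 0.87 in at-risk pups (SE 0.10, adjusted p = 6.46e-05). Ccl2, which attracts monocytes, fell by 1.52 in normal pups (SE 0.16, adjusted p = 1.8e-05) and fell by 0.97 in at-risk pups (SE 0.15, adjusted p = 0.000466), and its naïve and stimulated arrays did not overlap. Ccl5 fell by 0.62 in normal pups (SE 0.10, adjusted p = 0.000827). In at-risk pups its change of -0.32 (SE 0.09, adjusted p = 0.0461) had a fold just under the threshold, although its arrays did not overlap, and it passed the threshold without AF91 (adjusted p = 0.0170).

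Xcl1, the NK and T cell product, was 10.58, 10.70 and 10.61 in naïve normal arrays and 8.79, 8.98, 8.41 and 8.74 in stimulated normal arrays. In at-risk pups it was 10.31, 10.10, 10.06 and 9.94 in naïve arrays and 9.11, 9.54, 9.32 and 9.36 in stimulated arrays. The naïve and stimulated arrays were apart in both, and the 4 groups of Set 1 did not overlap anywhere. Xcl1 fell by 1.90 in normal pups (SE 0.13, adjusted p = 2.83e-07) and fell by 0.77 in at-risk pups (SE 0.12, adjusted p = 0.000442), or 3.73-fold and 1.70-fold. Ccl24, the eosinophil ligand, fell by 1.02 in normal pups (SE 0.16, adjusted p = 0.000477) and fell by 0.49 in at-risk pups (SE 0.15, adjusted p = 0.0476). In at-risk pups its arrays overlapped, since the lowest naïve array was at 8.67 and the highest stimulated array at 8.87. That call held without AF79, AF80 or AF91 and was lost when any of the other 12 of the 15 arrays was left out, and with the compared groups alone (adjusted p = 0.101).

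The ligands of Ccr4, which mark mature DCs and allergic inflammation, did not pass the test. Ccl17 was 7.81 ± 0.45 (SD, n = 3) in naïve normal, 7.71 ± 0.13 (SD, n = 4) in stimulated normal, 7.83 ± 0.19 (SD, n = 4) in naïve at-risk and 7.64 ± 0.18 (SD, n = 4) in stimulated at-risk arrays. Its change was -0.10 in normal pups (95% interval -0.46 to 0.26) and -0.19 in at-risk pups (-0.52 to 0.15). Ccl22 changed by -0.27 in normal pups (-0.46 to -0.08, limma adjusted p = 0.053), where its naïve and stimulated arrays did not overlap and it passed the threshold without AF77, and by 0.01 in at-risk pups (-0.17 to 0.18). Counting Ccl22, 9 of the 10 genes had no overlap in normal pups, where 10.3% of all probe sets were lower with no overlap, and 7 of 10 had none in at-risk pups, where 8.84% of all probe sets were.

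**Figure D2:**
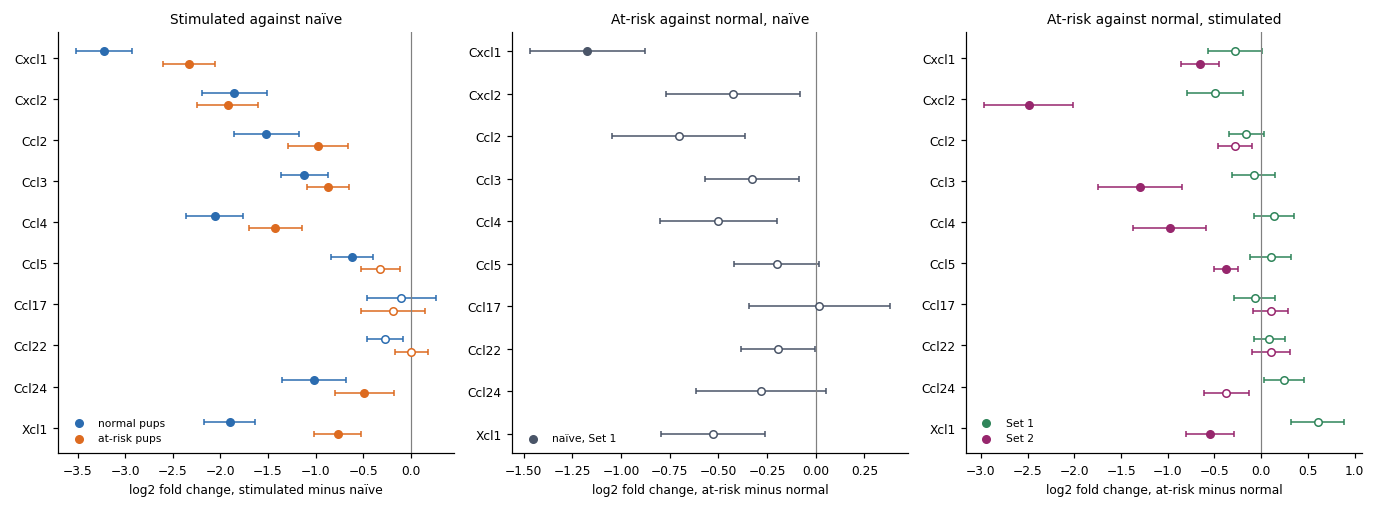
Log2 fold changes of the 10 ligands with 95% intervals (horizontal axes), for stimulated against naïve pups of Set 1 (left, blue normal and orange at-risk), at-risk against normal naïve pups (middle) and at-risk against normal stimulated pups (right, green Set 1 and purple Set 2). Filled points were called and open points were not. The falls with stimulation run from -3.22 for Cxcl1 in normal pups towards 0, and in stimulated pups the points of Set 2 lie left of those of Set 1 for 8 of the 10 ligands.

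Whether the change with stimulation differed between normal and at-risk pups was tested with an interaction term over the 15 arrays of Set 1. Of the 10 members, 1 was called, Xcl1, with a positive difference, where 0.0486% of all probe sets were called in that direction. No member was called in the other direction. The fall of Xcl1 was smaller by 1.13 on the log2 scale in at-risk pups (SE 0.17, 95% interval from 0.77 to 1.5, adjusted p = 0.0311). The call depended on single arrays: it held without AF80, AF85, AF88 or AF90 and was lost when any of the other 11 of the 15 arrays was left out, with adjusted p-values of 0.0512 to 0.0792. The difference for Cxcl1 was 0.89 (SE 0.19, 0.49 to 1.29), with an adjusted p of 0.113. For the other 8 genes it ran from -0.09 for Ccl17 to 0.64 for Ccl4, and the median over the members was 0.42 against -0.02 over all probe sets. The difference for Cxcl2 was small, with a value of -0.07 (95% interval -0.54 to 0.40).

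At-risk and normal pups were next compared without allergen, to ask whether the mother's asthma alone went with a change. In naïve DCs the log2 change was negative for 9 of the 10 genes, and 1 of the 10, Cxcl1, was called lower, where 0.239% of all probe sets were. The values of Cxcl1 given above put the 4 naïve at-risk arrays (7.45 to 7.85) below the 3 naïve normal arrays (8.70 to 8.97), with a change of -1.17 (SE 0.14, 95% interval -1.47 to -0.88) and a 2.25-fold lower signal. The other changes were -0.71 for Ccl2 (SE 0.16), -0.53 for Xcl1 (SE 0.13), -0.50 for Ccl4 (SE 0.14), -0.42 for Cxcl2 (SE 0.16) and -0.33 for Ccl3 (SE 0.11), and none of these passed the threshold, although Ccl4 did without AF79 and Ccl2 did without AF80. They were -0.28 for Ccl24, -0.20 for Ccl5, -0.19 for Ccl22 and 0.02 for Ccl17.

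The naïve at-risk and naïve normal arrays did not overlap for 5 of the 10 genes, Cxcl1, Ccl2, Ccl3, Ccl22 and Xcl1, all lower in at-risk pups, where 5.39% of all probe sets were lower with no overlap. The Ccl2 arrays were 7.62, 8.23 and 7.68 in normal and 7.53, 7.18, 6.85 and 6.99 in at-risk pups, so that the gap between the groups was 0.09. For Xcl1 the gap was 0.27. The median change of the members was -0.38, against 0.00 over all probe sets. Markers of other cells moved with this comparison too. The mean of the T cell markers was 9.88 to 10.01 in naïve normal and 9.57 to 9.70 in naïve at-risk arrays, with no overlap, and 8 of its 9 genes had negative changes, with a median of -0.34 and none called. The mean of the B cell markers was 9.87 to 10.00 and 9.74 to 9.80, with Cr2 called lower (-0.71), and of 8 markers of mature or migratory DCs Socs2 was called lower (-0.53). No NK, macrophage or platelet marker was called. The part of these cells in the changes of the ligands was not tested. The naïve groups are also part of the comparisons with stimulated pups, so these comparisons are not independent. A lower naïve level in at-risk pups need not go with a smaller fall there. Cxcl2 was lower in naïve at-risk pups, and its change with stimulation was -1.92 in at-risk and -1.85 in normal pups.

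In stimulated pups, at-risk and normal arrays were compared over both sets with set as a term. Of the 10 genes, 2 were called lower, Cxcl1 and Cxcl2, where 0.415% of all probe sets were, and no member was called higher. Cxcl2 had the lowest change of all 22626 probe sets, -1.54 (SE 0.28, 95% interval -2.12 to -0.96), a 2.92-fold lower signal in at-risk pups. Cxcl1 changed by -0.48 (SE 0.09, -0.67 to -0.28). Its at-risk arrays of Set 2 (4.41 to 4.78) lay below the lower quartile of all probe sets on every array, where signal over background is unknown, so the size of this change is uncertain. The changes of Ccl3 (-0.72, SE 0.19), Ccl4 (-0.45, SE 0.17), Ccl2 (-0.22, SE 0.06), Ccl5 (-0.15, SE 0.08) and Ccl24 (-0.08, SE 0.11) were negative and did not pass the threshold, although Ccl3 did without AF90 or AF91. Ccl17, Ccl22 and Xcl1 lay at 0.02, 0.10 and -0.00. The pooled values hide a difference between the sets, given next, and without the term for set no member was called.

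Cxcl2 in Set 1 was 10.54, 10.34, 10.20 and 10.06 in stimulated normal arrays and 9.47, 9.79, 9.86 and 10.05 in stimulated at-risk arrays. In Set 2 it was 9.48, 9.59, 9.73 and 9.70 in normal arrays and 6.88, 7.50, 7.48, 7.40 and 6.40 in at-risk arrays. The arrays of the groups were apart in both sets, narrowly in Set 1 with a gap of 0.02 and widely in Set 2 with a gap of 1.98. The change was -0.49 (SE 0.13) in Set 1, which was not called, and -2.49 (SE 0.21) in Set 2, a 5.62-fold lower signal, and the sets differed by -2.0 (SE 0.28).

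Ccl3 showed the same kind of difference. In Set 1 the stimulated groups overlapped, with a change of -0.08 (95% interval -0.31 to 0.15). In Set 2 the normal arrays were at 11.77, 11.77, 11.58 and 11.68 and the at-risk arrays at 9.77, 10.85, 10.79, 10.46 and 10.12, with a change of -1.30 (SE 0.20). All 5 at-risk arrays of Set 2 lay below all normal ones. Ccl4 changed by 0.13 (-0.08 to 0.35) in Set 1 and by -0.98 (-1.37 to -0.59) in Set 2, where its at-risk arrays ran from 7.80 to 8.74 and its normal arrays from 9.26 to 9.37.

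Xcl1 had opposite signs in the sets. Its stimulated at-risk arrays in Set 1 (9.11 to 9.54) were above the normal ones (8.41 to 8.98), a change of 0.60 (95% interval 0.32 to 0.89) that was not called. In Set 2 the normal arrays were at 10.20, 10.24, 10.20 and 10.23 and the at-risk arrays at 9.33, 9.95, 9.85, 9.71 and 9.51, a change of -0.55 (-0.81 to -0.29) that was called. The pooled value near 0 is thus the mean of a higher and a lower level. Ccl24 also changed sign, from 0.25 (0.03 to 0.46) to -0.37 (-0.62 to -0.13), and it was called in neither set.

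The difference between the sets was tested as an interaction over the 17 stimulated arrays, and 6 of the 10 genes were called, all more negative in Set 2, where 1.13% of all probe sets were called in that direction. Next to Cxcl2 they were Ccl3 (-1.22, SE 0.25, limma adjusted p = 0.0199), Xcl1 (-1.15, SE 0.18, adjusted p = 0.00417), Ccl4 (-1.11, SE 0.22, adjusted p = 0.015), Ccl24 (-0.62, SE 0.15, adjusted p = 0.048) and Ccl5 (-0.48, SE 0.11, adjusted p = 0.0412). The call of Ccl5 held without AF85, AF88, AF121, AF123 or AF125 and was lost without any of the other 12 of the 17 arrays. That of Ccl24 held without AF88, AF121, AF124 or AF125 and was lost without any of the other 13, and that of Ccl3 without array AF91 (adjusted p = 0.0521). For Cxcl1 the sets differed by -0.38 (SE 0.17, adjusted p = 0.272), with changes of -0.28 in Set 1 and -0.66 in Set 2, the second against the dim at-risk arrays named above, so its size and that of the difference are uncertain. Ccl2, Ccl17 and Ccl22 differed between sets by -0.12 (95% interval -0.37 to 0.13), 0.17 (-0.11 to 0.46) and 0.02 (-0.23 to 0.27). Set and RNA amplification cannot be told apart.

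Within Set 1 alone no member was called in the stimulated comparison, where 0.119% of all probe sets were called in either direction, and the median over the members was 0.01. At an array level, Cxcl2 was the 1 member lower with no overlap and Xcl1 the 1 member higher with no overlap, where 3.47% and 2.76% of all probe sets were. Within Set 2 alone 6 members were called lower (Cxcl1, Cxcl2, Ccl3, Ccl4, Ccl5 and Xcl1), where 2.04% of all probe sets were, and 7 were lower with no overlap, Ccl24 included, where 4.47% of all probe sets were. Ccl5, which attracts T cells and eosinophils, ranged in Set 2 from 12.48 to 12.57 over the normal arrays and from 12.09 to 12.27 over the at-risk arrays. The groups overlapped for both Ccr4 ligands in Set 2, with Ccl17 at 7.71 ± 0.08 (SD, n = 4) in normal and 7.82 ± 0.15 (SD, n = 5) in at-risk arrays, and Ccl22 at 10.80 ± 0.10 (SD, n = 4) and 10.91 ± 0.16 (SD, n = 5).

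**Figure D3:**
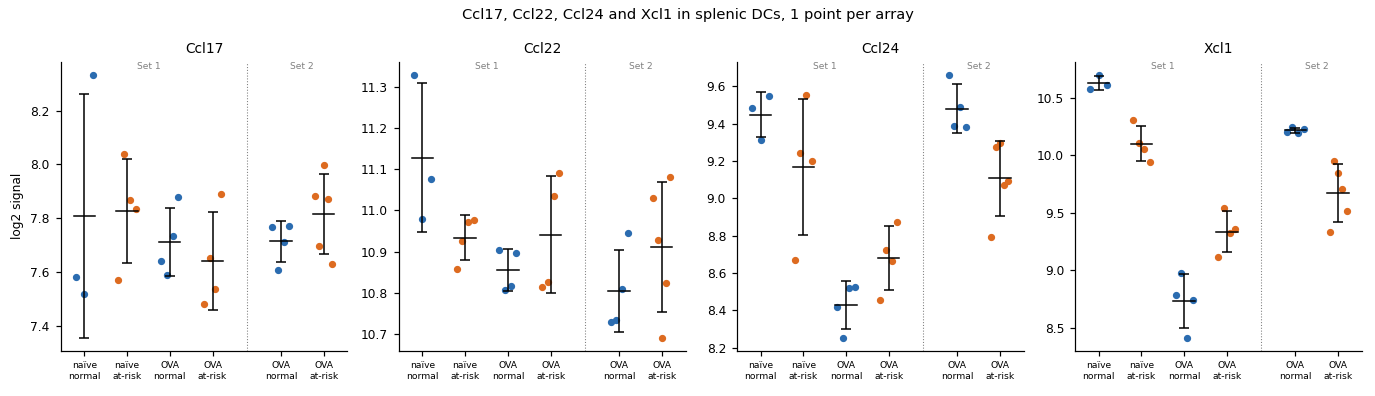
Log2 signal of Ccl17, Ccl22, Ccl24 and Xcl1 (vertical axes, each on its own range) in the 6 groups. Each point is 1 array, blue for normal and orange for at-risk pups, OVA stands for stimulated pups, black bars are the mean ± SD and the dotted line separates Set 1 from Set 2. Xcl1 is higher in at-risk than in normal stimulated arrays of Set 1 and lower in those of Set 2, while the groups of Ccl17 overlap throughout.

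Markers of other cells moved with several of these comparisons. With stimulation in Set 1, 6 of 9 measured NK cell markers fell in normal pups and 7 of 9 in at-risk pups, and 9 and 8 of 9 T cell markers fell, next to Xcl1 and Ccl5. The mean of NK markers was 10.31 to 10.51 in naïve normal, 10.23 to 10.39 in naïve at-risk, 9.14 to 10.06 in stimulated normal and 9.44 to 9.62 in stimulated at-risk arrays. Within the stimulated normal group of Set 1, 6 of the 10 members were at their highest on AF85, the array with the most NK and T cell marker signal: Xcl1 (8.98), Ccl5 (12.72), Cxcl1 (5.74), Ccl2 (6.51), Ccl3 (11.97) and Ccl4 (9.62). Other groups of Set 1 had such an array too, AF91 with 8 members in stimulated at-risk and AF80 with 6 in naïve at-risk pups. AF91 also had the highest NK (9.62) and T cell (8.69) marker means of its group. AF80 had the highest NK mean of its group (10.39), while its T cell mean (9.64) was below that of AF82 (9.70). The share of all probe sets that were highest on these arrays was not counted. B cell and neutrophil means were lower in stimulated arrays with no overlap in normal pups alone, and eosinophil means were higher with no overlap in at-risk pups alone. Macrophage markers fell for 6 and 4 of 11 genes in normal and at-risk pups, next to Ccl24. Platelet markers rose for 7 and 8 of 8 genes. Erythroid means were higher in stimulated arrays with no overlap, in normal (7.99 to 8.24 and 8.93 to 9.09) and at-risk pups (8.10 to 8.35 and 9.15 to 9.49). In both kinds of pups endothelium means were also higher, and plasmacytoid DC and plasma cell means lower, with no overlap. Conventional DC means were narrowly higher with no overlap in normal pups (12.47 to 12.52 and 12.57 to 12.67) and overlapped in at-risk pups.

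In Set 2, 7 of 9 NK markers and 7 of 9 T cell markers were called lower in at-risk pups, with NK means of 9.81 to 9.86 in normal and 8.89 to 9.28 in at-risk arrays and T cell means of 9.21 to 9.25 and 8.35 to 8.86. In Set 1 none of these markers was called between the stimulated groups, and the median change of the NK markers was -0.01. Of the macrophage markers 4 of 11 were called lower in Set 2, with means of 11.36 to 11.44 in normal and 10.75 to 11.14 in at-risk arrays. None was called in Set 1, where the means stood narrowly apart in the other direction (10.64 to 10.80 in normal and 10.82 to 10.94 in at-risk arrays). Of the platelet markers 7 of 8 were called higher in Set 2, with means of 6.85 to 7.13 in normal and 8.27 to 9.52 in at-risk arrays, and none in Set 1. Conventional DC markers had 0 of 11 calls in every maternal comparison, but of 5 plasmacytoid DC markers 4 were called lower in at-risk pups of Set 2 (median -0.49), with means of at least 11.57 in normal and at most 11.29 in at-risk arrays, 2 over both sets and none in Set 1. The means of erythroid markers (8.52 to 8.59 in normal and 9.01 to 10.02 in at-risk arrays), stroma markers (6.68 to 6.81 and 7.28 to 7.87), endothelium markers (6.76 to 7.03 and 7.33 to 7.81) and B cell markers (10.45 to 10.53 and 10.69 to 10.85) also stood apart in Set 2, all higher in at-risk pups. Eosinophil marker means did so as well (8.17 to 8.33 and 8.54 to 9.72). Plasma cell marker means stood apart in Set 2 and were lower in at-risk pups (9.64 to 9.79 and 9.40 to 9.59). In Set 1 the erythroid means (8.93 to 9.09 and 9.15 to 9.49) and eosinophil means (7.73 to 8.01 and 8.14 to 8.40) were also apart, higher in at-risk pups. The neutrophil markers had a mean of 11.14 to 11.45 in stimulated normal and 11.75 to 12.22 in stimulated at-risk arrays of Set 1, with 2 of 8 called higher. In Set 2 the neutrophil means overlapped (11.15 to 11.26 in normal and 11.13 to 12.31 in at-risk arrays). The part of these cells in the changes of the ligands was not tested.

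**Figure D4:**
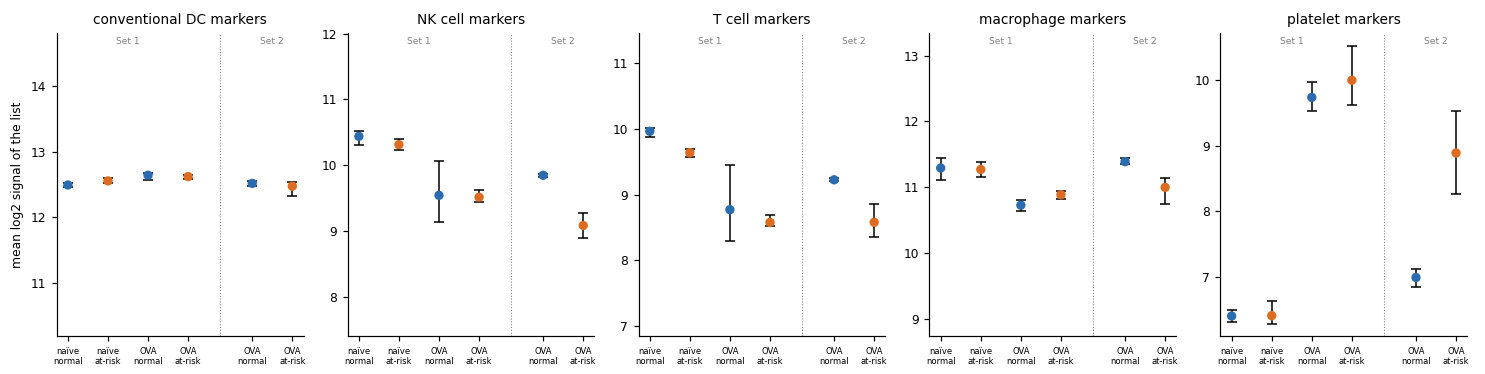
Mean log2 signal of the marker lists of conventional DCs, NK cells, T cells, macrophages and platelets in the 6 groups (vertical axes of equal span). Points are the mean of a group, blue for normal and orange for at-risk pups, bars run from the lowest to the highest array and the dotted line separates Set 1 from Set 2. DC markers stay between 12.32 and 12.67, NK and T cell markers are lower in stimulated than in naïve arrays and lower in at-risk arrays of Set 2, and platelet markers are higher in stimulated arrays of Set 1.

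The rest of the chemokine system was read from lists of other ligands, of receptors, of inducing cytokines and of NF-kB genes. Of 23 other chemokine ligands measured (29 listed), 6 fell with stimulation in normal pups: Cxcl13 (-2.58), which attracts B cells, Cxcl10 (-0.82), Cxcl11 (-0.82) and Cxcl9 (-0.39), which are interferon-induced ligands of Cxcr3, Ccl12 (-0.75), another ligand of Ccr2, and Ccl1 (-0.48). In normal pups 3 rose, Ppbp (5.37), Pf4 (4.40) and Cxcl5 (0.99), of which Ppbp and Pf4 are stored in platelets and are on the platelet marker list. In at-risk pups Cxcl13 was the 1 of 23 that fell (-1.18) and the same 3 rose (Ppbp 5.40, Pf4 4.57, Cxcl5 0.87). Cxcl5, Ccl1 and Ccl12 were dim, with mean signals at the 16.0, 22.9 and 27.3 percentile of all probe sets, so the sizes of their changes are uncertain. In naïve pups Cxcl10 was the 1 called lower with maternal asthma (-0.63). In stimulated pups pooled over both sets, Pf4 (1.26) and Ppbp (1.44) were the 2 called, both higher in at-risk pups. These pooled values do not hold for each set, since platelet markers were called in Set 2 and not in Set 1, as given above. The median change of this list was -0.06 with stimulation in normal pups and -0.04 in at-risk pups.

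Of 8 receptors of the members measured (9 listed), Xcr1, the receptor of Xcl1 on cross-presenting DCs, rose with stimulation in normal pups (0.80, SE 0.17, limma adjusted p = 0.00624), where Xcl1 fell. Ackr1, an atypical receptor that binds many inflammatory chemokines, rose in normal (0.68) and at-risk pups (1.15), and Ccr3, the receptor of Ccl24, fell in normal pups (-0.34). In Set 2 Ccr1 (-0.74), Ccr2 (-0.36) and Cxcr2 (-0.77), receptors of Ccl3 and Ccl5, of Ccl2 and of Cxcl1 and Cxcl2, were called lower in at-risk pups. Pooled over both sets, Ackr1 was the 1 receptor called in stimulated pups, higher in at-risk pups (0.64), and no receptor was called between naïve groups.

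Among 12 inducing and partner cytokines, 7 fell with stimulation in normal pups, among them Tnf (-1.10), Il6 (-1.30), Il10 (-1.46), Ifng (-1.94) and Il1a (-0.75). Il10, Il1a and Il6 were dim, with mean signals at the 17.4, 21.8 and 30.1 percentile of all probe sets. Signal over background is unknown there, so the sizes of their changes are uncertain in every comparison. In at-risk pups Tnf (-0.51), Ifng (-1.69) and Il10 (-0.71) fell and Tslp (0.39), an epithelial cytokine that drives DCs towards allergic responses, rose. In naïve at-risk pups Il6 (-1.18) and Il10 (-0.69) were called lower beside Cxcl1, and Il6 was the 1 of the 12 whose change with stimulation was called as different between at-risk and normal pups (1.10, SE 0.17, limma adjusted p = 0.0402). In stimulated pups pooled over both sets, Ifng (-0.75) was called lower in at-risk pups. Of 11 NF-kB subunit and feedback genes measured (12 listed), 5 fell in normal pups, Rel (-1.17), Tnfaip3 (-1.09), Nfkbiz (-1.0), Nfkbib (-0.52) and Bcl3 (-0.47), and 3 fell in at-risk pups, Tnfaip3 (-1.07), Nfkbiz (-0.83) and Rel (-0.62). Rel encodes a subunit of NF-kB, and Tnfaip3, Nfkbiz and Bcl3 are regulators that NF-kB itself induces. None was called between the naïve groups, although the mean of this list was lower in at-risk pups with no overlap (10.85 to 10.88 in naïve normal and 10.59 to 10.73 in naïve at-risk arrays). Nfkbiz (-0.46) was the 1 called lower in stimulated at-risk pups when both sets were pooled.

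How the members varied together was described by Pearson correlations over 24 arrays of log2 signals centred on their set, which share the arrays and the group differences and are given with no p. Cxcl2 and Ccl3 had r = 0.96, and r = 0.71 remained when signals were centred within each group. Ccl4 and Xcl1 had r = 0.95 and 0.80 within groups, and Ccl3 and Xcl1 had 0.82 and 0.79. Cxcl1 correlated with Ccl2 and with Ccl4 at 0.92 in both cases, but at -0.34 and 0.04 within groups. Ccl17 and Ccl22 had r of 0.09 to 0.37 and 0.02 to 0.40 with the other members.

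The named genes whose signal was most like that of each member, by the same measure over 24 arrays, were Rilpl2 for Cxcl1 (r = 0.98), Ptgs2 for Cxcl2 (r = 0.96), Acod1 for Ccl2 (r = 0.96), Rhob for Ccl3 (r = 0.98), Serpinb9b for Ccl4 (r = 0.97), Cst7 for Ccl5 (r = 0.94), Atp5md for Ccl17 (r = 0.84), Lad1 for Ccl22 (r = 0.81), Igf1 for Ccl24 (r = 0.94) and C6 for Xcl1 (r = 0.95). Within groups the value was 0.75 for Cxcl2 and Ptgs2, 0.89 for Ccl3 and Rhob and 0.81 for Ccl24 and Igf1, and 0.21 for Cxcl1 and Rilpl2. Klrd1, a gene of NK cells, was among the 3 most alike to Ccl5 (r = 0.93), and C1qb, a gene of macrophages, among the 3 most alike to Ccl24 (r = 0.93). Of the 3 most alike to Xcl1 (C6, Cd5l and Gbp2), Cd5l (r = 0.94) is on the macrophage marker list. None of them is on the NK or T cell marker list.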

How the data were processed

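Gene expression was measured on Affymetrix Mouse430A 2.0 arrays in splenic DCs. The authors deposited RMA intensities, 1 for each probe set and on a linear scale, and the version of RMA is not stated in these sources. By the methods the sets were preprocessed separately with quantile normalization and median polish and a RefSeq-based probe set definition, whereas the table as deposited lists Affymetrix probe set identifiers. The planned tests assumed log2 values. Since the deposited intensities were linear, log2 was taken without a pseudocount, and the planned tests were run on it. All columns of the table belonged to a sample (0 did not), and no pair of arrays was identical.

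Of 22626 probe sets tested (64 controls left out), 20380 had 1 symbol, 691 several and 1555 none. The tests used lmFit and eBayes of limma 3.58.1 (R 4.3.3), and Python 3.11.15 with pandas 2.3.3, numpy 2.4.6 and matplotlib 3.10.9 made the figures. The naïve comparison, both stimulation comparisons and their interaction were fitted on all 15 Set 1 arrays, 1 mean for each group. The comparison of stimulated pups was fitted on 17 arrays with set as a term, and the difference between sets an interaction. Calls needed a p, adjusted by Benjamini-Hochberg over all probe sets, that did not exceed 0.05 and a change of at least 0.32 on the log2 scale. Fits were tested on simulated data. The alternatives were quantile normalization, median centring, leaving out probe sets under the 40th percentile, no fold threshold, a trended robust variance, array weights, other arrays in the fit, other treatments of set, and leaving out each array.

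The members, lists, markers and tests were chosen with earlier results of these data known. All 10 members are named, and from the other lists called genes and genes at the limits of a range. Genes most alike were the 3 with the highest Pearson r for each member. The number of arrays limits the precision.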

Additional observations from a re-analysis of the deposited data

Results flagged for a closer look

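In the stimulated at-risk group of Set 1 array AF90 had a Cxcl1 log2 signal of 5.73, apart from the other arrays of the group, the nearest of which was at 5.22, by more than the 95% critical value of Dixon's test. It was 1 of 50 sets of gene and group tested, and chance alone puts about 1 in 20 past that value.

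The change of Xcl1 with stimulation differed between at-risk and normal pups by 1.13 on the log2 scale (limma interaction, adjusted p = 0.0311). This call was lost when any of 11 of the 15 arrays was left out. The list was drawn up with results known, so this p does not stand as independent support. The maternal change in stimulated pups differed between Set 2 and Set 1 for 6 genes in the same kind of test, by -2.0 for Cxcl2, -1.22 for Ccl3, -1.15 for Xcl1, -1.11 for Ccl4, -0.62 for Ccl24 and -0.48 for Ccl5. With 1 of the 17 arrays left out, the call was lost for 13 of them for Ccl24, 12 for Ccl5 and 1 for Ccl3. The sets differed in RNA amplification and in how marker signal of several cell types stood between their groups, as given beside the results. These were NK, T, B and plasma cells, neutrophils, macrophages, platelets, plasmacytoid DCs, endothelium and stroma. The part of amplification and of these cells in the differences was not tested.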

How the results depend on the processing

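The count of members called in the naïve comparison (1 in the reported fit) was 0 when dim probe sets were left out, which removed Cxcl1 and Ccl2 from the table, 2 with array weights (Ccl4 in addition) and 2 with all 24 arrays in the fit (Ccl2 in addition). The count in the stimulated comparison (2) was 1 without dim probe sets, 4 with all arrays (Ccl3 and Ccl4 in addition), 0 with no term for set (neither Cxcl1 nor Cxcl2 passed), 0 in Set 1 alone and 6 in Set 2 alone. Leaving out each array in turn gave counts of 1 to 2 in naïve pups (2 without AF79 or AF80), 2 to 3 in stimulated pups, 8 to 9 and 6 to 8 with stimulation in normal and at-risk pups, 0 to 1 for the difference between them and 3 to 6 for the difference between sets (3 without AF91). Signs turned for changes near 0. For Ccl17 they turned to -0.00066 with quantile normalization in naïve pups, to -0.0067 with array weights and -0.071 in Set 1 alone in stimulated pups, and to 0.14 with array weights in stimulation of normal pups. Xcl1 in stimulated pups was 0.10 with array weights, 0.029 with all arrays, 0.047 with no term for set, 0.0078 with set as a random block and 0.60 in Set 1 alone, where Ccl4 was 0.13, Ccl5 0.10 and Ccl24 0.25. Ccl22 with stimulation of at-risk pups was -0.018 after median centring, and the Cxcl2 difference between kinds of pups was 0.021 with array weights. Over single arrays left out, Ccl17 ran from -0.13 to 0.28 in naïve pups, -0.0094 to 0.052 in stimulated pups, -0.24 to 0.16 with stimulation of normal pups and -0.35 to 0.058 for the difference between kinds of pups, Xcl1 from -0.092 to 0.071 in stimulated pups, Ccl22 from -0.043 to 0.050 with stimulation of at-risk pups and -0.022 to 0.075 between sets, and Cxcl2 from -0.19 to 0.061 between kinds of pups. Under the other alternatives, 444 of the single gene values kept their sign and side of the threshold, 14 passed it newly and 6 no longer passed it. Where no value above shows it, the cause was not tested. No paired analysis was possible because the labels give no replicate numbers that groups share. Signal over background was not given, so the precision rests on the number of arrays.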
